A study of Mus musculus with 8 samples.

Results

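UDP-glucuronosyltransferases attach glucuronic acid to drugs, steroids, bilirubin and dietary carcinogens, and the glucuronides then leave in bile or urine. The genes described here were 9 mouse genes chosen by name: Ugt1a1, Ugt1a6a, Ugt1a6b and Ugt1a7c of the Ugt1a complex, Ugt2a3, Ugt2b34, Ugt2b35 and Ugt2b36 of the Ugt2 family, and Ugdh, whose enzyme makes the cosubstrate UDP-glucuronate. No probe was matched to Ugt2b36. The other 8 are among 15596 named genes on the arrays and had 17 probes, and 12 of these, from 5 genes, were bright enough to be tested.

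The samples were 8 male mice of the hCYP1A genotype, humanized for CYP1A, on a C57BL/6 background, with 1 array for each mouse. All ate AIN93M diet and were gavaged once at 8 weeks of age, 5 with PhIP (a heterocyclic amine and carcinogen of cooked meat) at 200 mg/kg and 3 with PBS, and tissue labelled as scraped colon epithelium was taken 24 hours later. Both groups carried the humanized locus, and no mice without it were analysed here. The question was which genes responded to PhIP. The p-values measure the spread between these 8 samples, which the labels number by mouse.

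The scans went against the tissue label. Of 8 genes that define colon epithelium (Cdx1, Cdx2, Vil1, Cdh17, Krt20, Car1, Car4 and Tff3), none had a probe found above background on all 8 arrays, 6 were found on none, and their net intensities lay between -5 and 26. Of 7 genes known for the secretions of the prostate and seminal vesicle (Pbsn, Msmb, Tgm4, Svs2, Svs4, Svs5 and Sbp), all 9 probes were found on all 8 arrays, at 3074 to 65493. Both lists were chosen after the values were seen. Some other genes listed as markers of colon cells were detected, and whether they are specific to colon was not tested. Of 8 surface colonocyte genes with a probe, 4 were bright enough to be tested (Car2, Slc26a3, Aqp8 and Atp12a). So were 3 of 5 goblet cell genes (Agr2, Clca1 and Spdef). Car2, Atp12a, Agr2 and Spdef were found on all 8 arrays, Slc26a3 and Aqp8 on 7 and Clca1 on 5. Epithelial genes that many organs share (Epcam, Cdh1, Krt8, Krt18 and Krt19) were detected on all 8 arrays, and the hepatocyte markers were not (0 tested of 5 with a probe). The level of every Ugt gene below belongs to tissue with these markers.

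One array stood apart. The scan of PhIP mouse 1, taken at a photomultiplier gain of 700 in place of 650, found 21.4% of 35078 mouse probes, against 53.8% to 57.1% on the others, and none of the 17 member probes was found on it, while 8 of them were found on all 7 other arrays. It is called the dim array, and values with and without it are given side by side. Quantile normalization, which gives all arrays the same distribution, raised some spots that the software had not found there. A Ugt1a6b spot with a net intensity of 20 became 7.69 on the log2 scale and a Ugt1a7c spot with 24 became 7.95, so log2 values of members on that array are not measured levels. Values below are normalized log2 intensities unless named otherwise, with a floor of 4.41.

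The Ugt1a complex is a single locus in which each gene starts at its own promoter and exon, which is spliced to exons that all of them share. Their products differ in substrate: UGT1A1 is the bilirubin-conjugating enzyme, and in humans it also conjugates the hydroxylamine of PhIP, while UGT1A6 conjugates small phenols and its gene is a known target of the aryl hydrocarbon receptor (AhR) and of Nrf2. In the GRCm38.p6 annotation the complex lies on the plus strand of chromosome 1. Ugt1a7c spans chr1:88095001-88220002, Ugt1a6b spans chr1:88103257-88218998, Ugt1a6a spans chr1:88134809-88220002 and Ugt1a1 spans chr1:88211959-88220002. The starts thus differ while 3 of these 4 genes end at the same base. The sequences of the probes are not used here, so which probes lie in shared exons was not tested, and a probe named for a Ugt1a gene may read several of its neighbours.

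**Figure D1:**
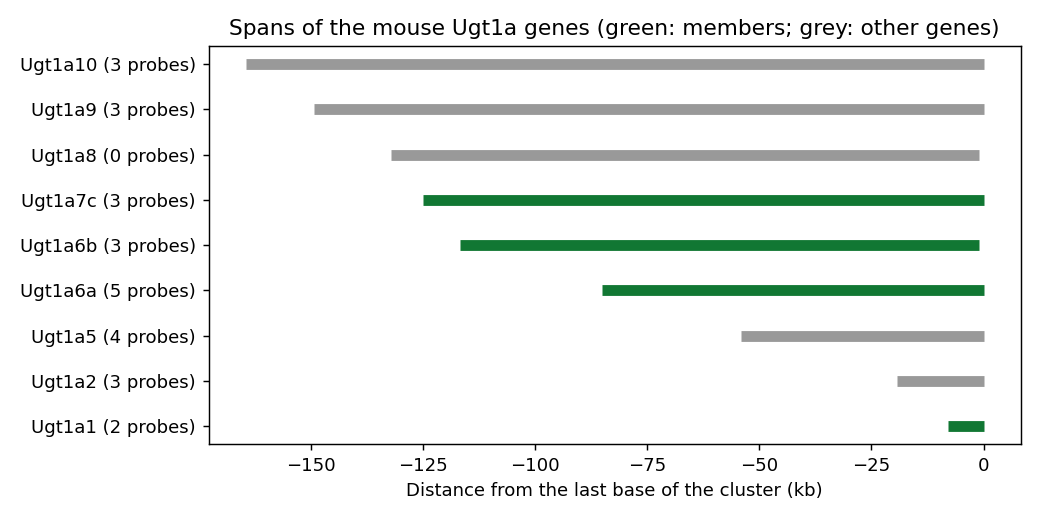
Spans of the 9 annotated mouse Ugt1a genes on the plus strand, drawn as distance in kb from the last base of the complex, with the number of probes matched to each gene. Members are green and other genes grey; Ugt1a10 starts 164.6 kb and Ugt1a1 8.0 kb before the last base, and the bars overlap at that end.

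Ugt1a6 and Ugdh are known targets of AhR or Nrf2, and each gene has its own promoter, so the 250 bases before the annotated start of 4 members are shown, 5′ to 3′ on the strand of the gene, from RefSeq GRCm38.p6. They are chr1:88211709-88211958 for Ugt1a1, chr1:88134559-88134808 for Ugt1a6a and chr1:88094751-88095000 for Ugt1a7c, on the plus strand, and chr5:65435843-65436092 for Ugdh, on the minus strand. Capitals mark the AhR core GCGTG and the antioxidant response element core TGACNNNGC, which Nrf2 binds, on either strand.
Ugt1a1: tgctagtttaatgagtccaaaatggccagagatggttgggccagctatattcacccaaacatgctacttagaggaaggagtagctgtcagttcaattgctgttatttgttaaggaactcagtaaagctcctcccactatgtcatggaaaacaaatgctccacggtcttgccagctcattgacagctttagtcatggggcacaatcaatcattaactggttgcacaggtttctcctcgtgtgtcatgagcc
Ugt1a6a: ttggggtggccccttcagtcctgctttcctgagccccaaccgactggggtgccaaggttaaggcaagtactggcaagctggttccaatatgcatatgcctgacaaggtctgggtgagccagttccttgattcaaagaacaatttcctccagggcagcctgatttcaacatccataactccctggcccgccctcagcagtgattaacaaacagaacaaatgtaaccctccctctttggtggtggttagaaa
Ugt1a7c: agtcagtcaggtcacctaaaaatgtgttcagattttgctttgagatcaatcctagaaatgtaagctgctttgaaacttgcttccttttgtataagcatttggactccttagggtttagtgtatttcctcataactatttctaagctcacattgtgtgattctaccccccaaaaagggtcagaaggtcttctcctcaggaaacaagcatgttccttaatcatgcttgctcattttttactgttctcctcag
Ugdh: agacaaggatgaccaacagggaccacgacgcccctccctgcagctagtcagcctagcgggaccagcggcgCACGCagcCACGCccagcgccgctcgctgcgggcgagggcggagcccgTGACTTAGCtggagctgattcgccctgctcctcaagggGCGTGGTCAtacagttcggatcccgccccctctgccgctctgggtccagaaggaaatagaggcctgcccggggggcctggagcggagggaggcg
The 3 Ugt1a windows held neither motif. GCGTG was in 2 of 8 Ugt1a promoters read (Ugt1a8 and Ugt1a5) and in 28.2% of 32851 mouse promoters of that length, and TGACNNNGC was in 0 of the 8 and 10.2% of all. The Ugdh window held 3 matches of GCGTG and 2 of TGACNNNGC, of which 1 overlaps a GCGTG. A match is not shown to be a binding site, and no match says only that these letters are not in the window.

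Ugt1a transcripts were clearly detected on 7 of 8 arrays, and no member passed the test between PhIP and PBS mice. In bulk tissue fewer cells of a type and less RNA per cell cannot be told apart. With 8 arrays 0 of 12 member probes passed (limma, lowest adjusted p = 0.838), against 0.005% of 20020 tested probes (1 probe), and 1 of 12 had an unadjusted p under 0.05, the Ugt1a7c probe mMR026574 described below, against 1.74% of all probes in that direction. Without the dim array 0 of 12 passed (limma, lowest adjusted p = 0.385), against 0.035% of 20004 probes (7 probes), and 1 of 12 had an unadjusted p under 0.05, against 3.52%. The fold changes were below 0 in PhIP mice for 11 of 12 probes with all arrays and for 12 of 12 without the dim one, where 52% and 46.9% of all tested probes were below 0. Their median log2 fold change was -0.65 with 8 arrays, against -0.02 for all probes, and -0.48 with 7, against 0.02.

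**Figure D2:**
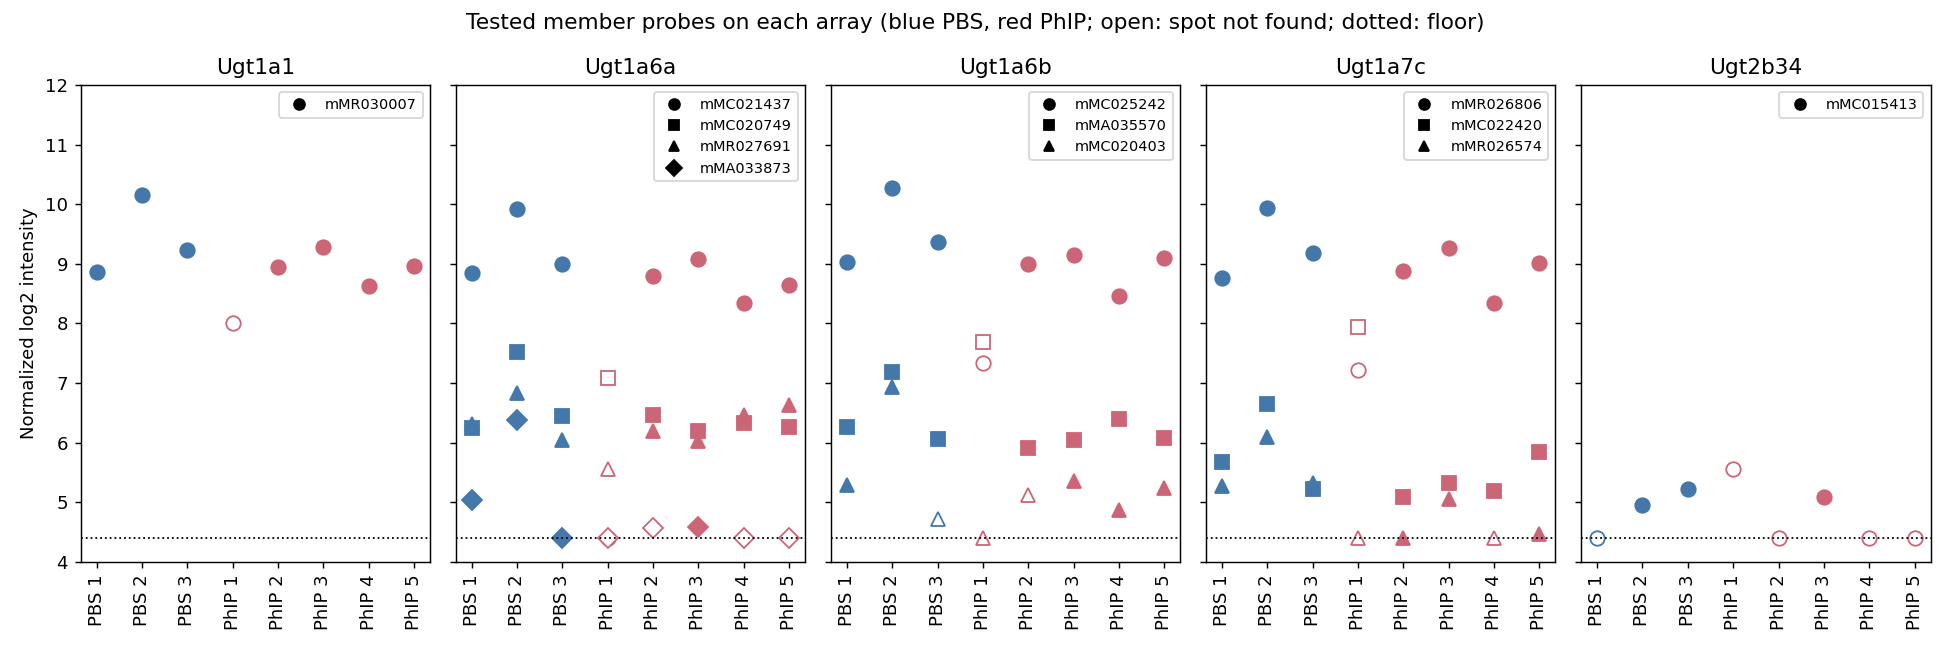
Normalized log2 intensity of the 12 tested member probes on each array, with PBS mice in blue and PhIP mice in red; open symbols are spots the scanner software did not find, and the dotted line is the floor of 4.41. PBS mouse 2 holds the highest symbol of the 7 arrays for 11 of the 12 probes, and every symbol of PhIP mouse 1 is open.

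The size of that difference rested on PBS mouse 2 and the dim array. PBS mouse 2 was the highest of the 7 other arrays for 11 of 12 tested member probes, against 16.9% of all tested probes. Leaving out PBS mouse 2 alone gave a median of -0.24, with 7 of 11 tested probes below 0. Leaving out both arrays, a choice made after the values were seen, gave a median of -0.09, with 9 of 11 below 0 and 0 passing (limma, lowest adjusted p = 0.472).

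Ugt1a1 encodes the bilirubin enzyme. Its probe mMR030007 had net intensities of 494, 1319 and 651 in PBS mice 1 to 3, of 510, 727, 522 and 514 in PhIP mice 2 to 5, and of 25 on the dim array, where it was not found. The normalized log2 values were 8.87, 10.16 and 9.23 in PBS mice and 8.00, 8.95, 9.28, 8.63 and 8.96 in PhIP mice 1 to 5. PBS mouse 2 stood above all others, and the rest of the PBS mice fell within the range of PhIP mice 2 to 5. The group means were 9.42 ± 0.66 (SD, n = 3) and 8.76 ± 0.48 (SD, n = 5). PhIP minus PBS came to -0.66 on the log2 scale (SE 0.37, adjusted p = 0.838 by limma). Without the dim array it was -0.46 (SE 0.30), and without PBS mouse 2 it was -0.29 (SE 0.36). With both left out it was -0.10 (SE 0.20). The second Ugt1a1 probe, mMC021438, was found on no array, with net intensities of 3 to 24.

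Ugt1a6a and Ugt1a6b encode the mouse phenol-conjugating enzymes of the UGT1A6 type. The Ugt1a6a probe mMC021437 read 8.85, 9.92 and 8.99 in PBS mice and 8.79, 9.08, 8.34 and 8.65 in PhIP mice 2 to 5. On the dim array it sat at the floor, with a net intensity of 3. Its log2 fold change of -1.40 (SE 1.03, limma adjusted p = 0.838) became -0.54 (SE 0.28) without that array and -0.21 (SE 0.21) without PBS mouse 2 as well. With 8 arrays the value thus rested on 1 spot at the floor.

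The Ugt1a6b probe mMC025242 read 9.03, 10.28 and 9.36 in PBS mice and 7.33, 8.999, 9.15, 8.46 and 9.09 in PhIP mice 1 to 5. PBS mice 2 and 3 lay above all 5 PhIP mice and PBS mouse 1 within their range. PhIP minus PBS was -0.95 (SE 0.48, adjusted p = 0.838 by limma), -0.63 (SE 0.31, limma adjusted p = 0.617) without the dim array, and -0.27 (SE 0.22) with PBS mouse 2 left out too. The other tested probes of these genes were dimmer, with net intensities of 19 to 223 on the 7 arrays. The 3 more for Ugt1a6a had log2 fold changes of -0.27 (mMC020749), -0.23 (mMR027691) and -0.80 (mMA033873), and of -0.42, -0.07 and -0.79 without the dim array. The 2 more for Ugt1a6b had -0.08 (mMA035570) and -0.65 (mMC020403), and -0.40 and -0.51 without it. All 5 were highest in PBS mouse 2 among the 7 arrays. The last Ugt1a6a probe, mMR001218, was found only in PBS mouse 2, at a net intensity of 57.

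Ugt1a7c encodes a further phenol- and xenobiotic-conjugating enzyme. Its brightest probe, mMR026806, read 8.76, 9.94 and 9.18 in PBS mice and 7.21, 8.89, 9.27, 8.35 and 9.01 in PhIP mice 1 to 5, and the groups overlapped. PhIP minus PBS was -0.75 (SE 0.49, adjusted p = 0.838 by limma), -0.41 (SE 0.31) without the dim array, and -0.09 (SE 0.26) without both arrays.

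The dim Ugt1a7c probe mMR026574 had the smallest p of the members. It read 5.27, 6.10 and 5.33 in PBS mice and 4.41, 4.41, 5.06, 4.41 and 4.48 in PhIP mice 1 to 5. It was found in all 3 PBS mice and in 3 of 5 PhIP mice, and every PBS mouse lay above every PhIP mouse. Of the 12 tested member probes it was the 1 whose groups did not overlap, which held for 5.34% of all tested probes. Its log2 fold change was -1.02 (SE 0.25, unadjusted p = 0.00334, limma adjusted p = 0.838), and with 3 PhIP values at the floor the size depends on where the floor is set. It was -0.99 (SE 0.26, limma adjusted p = 0.385) without the dim array and -0.72 (SE 0.23, limma adjusted p = 0.472) without PBS mouse 2 as well. The net intensities behind it were small, at 43, 84 and 46 in PBS mice against 18 to 35 in PhIP mice 2 to 5. The other Ugt1a7c probe, mMC022420, had a log2 fold change of 0.03 (SE 0.69) with 8 arrays and of -0.49 (SE 0.36) without the dim array, on which its spot was not found.

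**Figure D3:**
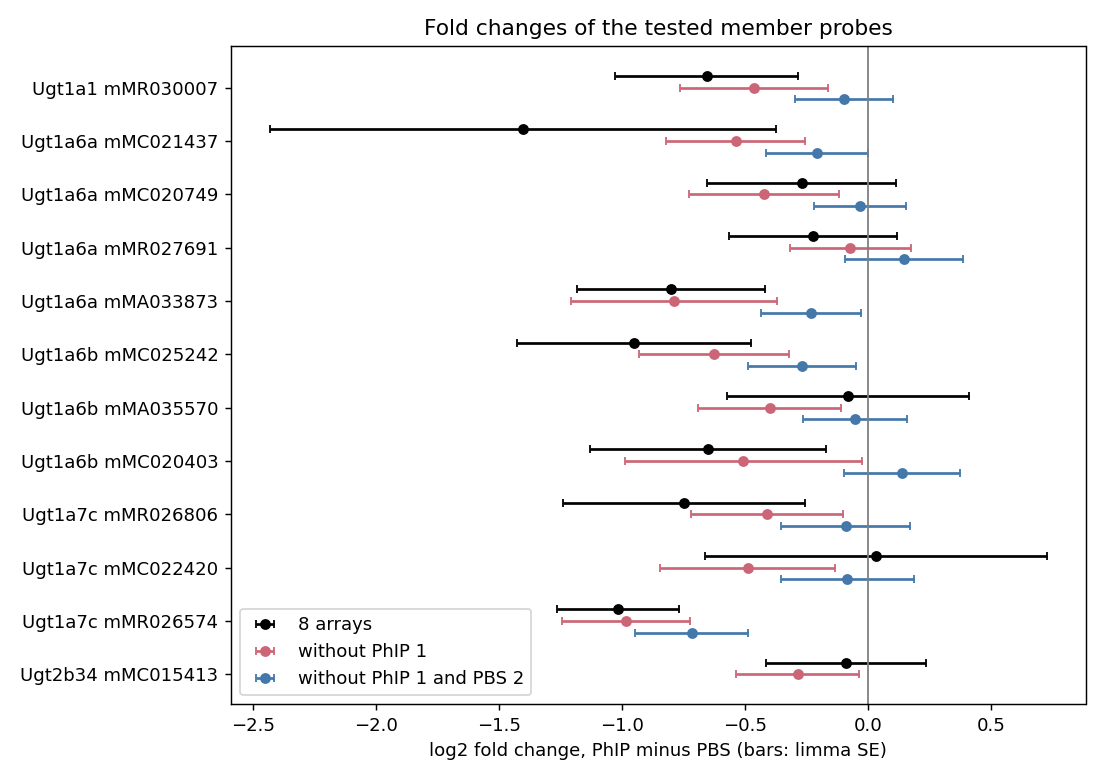
Log2 fold changes, PhIP minus PBS, of the 12 tested member probes with limma standard errors as bars, from all 8 arrays (black), without PhIP mouse 1 (red), and without PhIP mouse 1 and PBS mouse 2 (blue). The blue points of Ugt1a1 (-0.10), Ugt1a6b (mMC025242, -0.27) and Ugt1a7c (mMR026806, -0.09) lie nearer 0 than the black ones, mMR026574 stays at -0.72, and Ugt2b34 was not tested without both arrays.

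The brightest probes of the Ugt1a genes gave similar profiles over the mice. Each of 8 genes (Ugt1a1, Ugt1a2, Ugt1a5, Ugt1a6a, Ugt1a6b, Ugt1a7c, Ugt1a9 and Ugt1a10) had 1 such probe, with net intensities of 257 to 1430 on the 7 arrays. Over those arrays their 28 pairs had Pearson r of 0.708 to 0.991, with a median of 0.956. Without PBS mouse 2 the range was 0.576 to 0.988 and the median 0.884. The 10 other tested Ugt1a probes had a median r of 0.316 over 45 pairs, and of -0.01 without PBS mouse 2. They were dimmer, and some of their values lay at the floor. These r values describe 7 arrays that share their normalization, and the probes may share exons. In PBS mouse 2 the 8 probes exceeded the mean of the other PBS mice by 0.38 to 1.13. On the dim array 1 of the 8 was found, that of Ugt1a10, and their net intensities were -7 to 50. The 8 fold changes lay between -1.40 and -0.48 with all arrays, between -0.63 and -0.41 without the dim one, and between -0.33 and -0.09 without both.

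The authors' log2 matrix held 7 of these scans and 1 further column, labelled as a PhIP mouse, that matched no scan. Its column labelled PhIP mouse 1 carried the values of the scan of PhIP mouse 2, and the dim scan matched none of its columns. Whether the further column is another scan of one of these samples was not tested. That column, labelled PhIP mouse 2, read 9.55 for Ugt1a1, 9.27 for Ugt1a6a, 9.55 for Ugt1a6b and 9.36 for Ugt1a7c on the matrix scale. Each lay above PBS mice 1 and 3 and below PBS mouse 2, which read 10.29, 10.05, 10.40 and 10.07. With the 8 matrix columns the log2 fold changes were -0.33 (SE 0.26), -0.42 (SE 0.25), -0.48 (SE 0.26) and -0.30 (SE 0.26) in the same gene order, and none passed (limma adjusted p of 0.526 to 0.693).

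Groupings read from the scans' names did not give a common size. The labels do not name them as batches and do not explain re-dipping. Among the re-dipped arrays (PBS mice 1 and 2, PhIP mice 1 and 3) the log2 fold changes of Ugt1a1, Ugt1a6a, Ugt1a6b and Ugt1a7c were -0.88, -2.64, -1.41 and -1.11, and the dim array is 1 of them. Among the others, with PBS mouse 3 as the lone PBS array, assumed to vary like the PhIP arrays, they were -0.39, -0.40, -0.51 and -0.43. The names for PBS mice 1 and 2 hold numbers, taken as slide numbers, from another range than the rest, with a cut chosen here. With the range as a block PBS mouse 3 is thus the lone PBS array set against the PhIP arrays, and the dim array is among them. The 4 genes were then at -0.47, -1.14, -0.75 and -0.63, and the median of the 12 probes was -0.21, with 6 below 0.

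**Figure D4:**
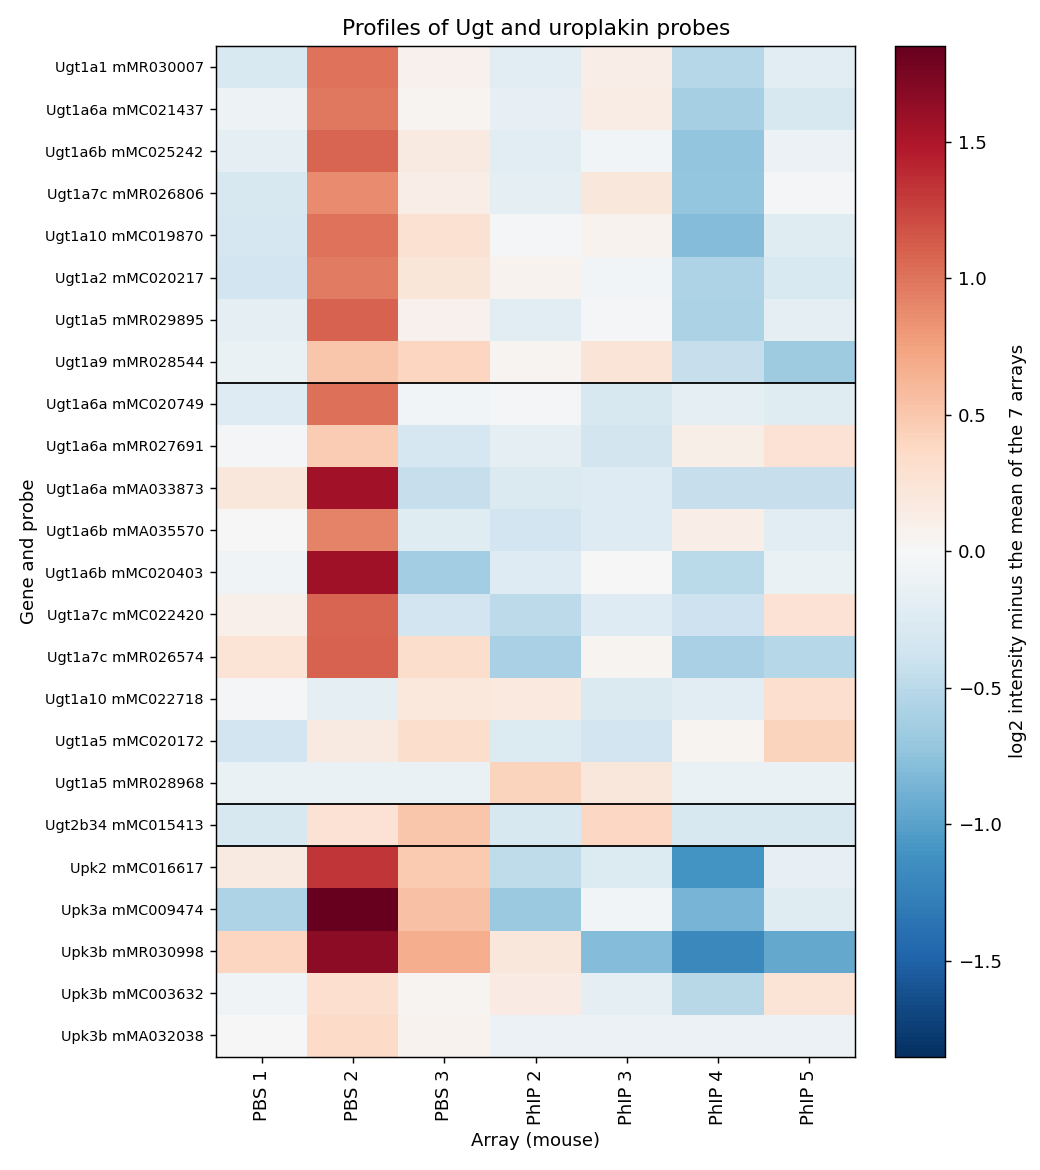
Log2 intensity of each probe minus its mean over the 7 arrays other than PhIP mouse 1, by mouse, with red above and blue below the mean. From the top, the blocks are the 8 brightest Ugt1a probes, the 10 other tested Ugt1a probes, Ugt2b34, and 5 uroplakin probes. The column of PBS mouse 2 is red in the 8 brightest Ugt1a probes and in the uroplakins. It is also red in Ugt2b34 and in most of the 10 other Ugt1a probes.

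Another set of epithelial genes was high with Ugt1a in PBS mouse 2. The uroplakins, plaque proteins of the urothelium, had 6 probes for 4 of 5 genes, in a list chosen after the values were seen. Their summed net intensity was 768, 2301 and 1116 in PBS mice, 641, 759, 572 and 727 in PhIP mice 2 to 5, and 217 on the dim array. For Upk3a alone it was 205, 1169 and 448 in PBS mice and 176, 312, 206 and 245 in PhIP mice 2 to 5. Upk1a had no probe and Upk1b was found on 1 array. Their part in the Ugt1a values was not tested. The summed intensity of the prostate and seminal vesicle genes, many near the scanner's ceiling, was 395932 to 473181 on the 7 arrays. Most marker lists of other cells had medians below 0 as well, and 0 genes passed in each. The colon epithelium and surface colonocyte lists did not share this with 8 arrays. The 5 tested genes of the colon epithelium list (Epcam, Cdh1, Krt8, Krt18 and Krt19) are those that many organs share. Its other genes, Krt20, Vil1, Cdx1, Cdx2 and Cdh17, were found on no array. Of the 5 tested genes 3 lay above 0 with 8 arrays and 5 with 7 (medians 0.23 and 0.10). Of 4 surface colonocyte genes 3 lay above 0 with 8 arrays and 2 with 7 (0.07 and -0.07). All 7 fibroblast genes lay below 0 in PhIP mice (median -0.80, or -0.48 without the dim array), as did all 6 smooth muscle genes (-0.38 and -0.21) and the 3 tested goblet cell genes (-0.61 and -0.54). Of 5 squamous epithelium genes 4 lay below 0 with 8 arrays (median -0.71) and 5 with 7 (-0.48). Of 4 immune cell genes 2 did with 8 and 4 with 7 (-0.40 and -0.53), among them Cd74 at -1.12 (SE 0.27). Of 4 erythroid genes 2 did with 8 and 3 with 7 (-1.89 and -2.32). The hemoglobin gene Hba-a1, one of them at -4.67 (SE 1.79), read 13.04 to 13.61 in PBS mice, 12.60 and 12.05 in PhIP mice 1 and 2, and 5.04 to 7.12 in PhIP mice 3 to 5. Of 6 stem and cycling cell genes 5 lay below 0 with 8 arrays and 3 with 7 (-0.60 and -0.01), and of 3 endothelium genes 2 did in both (-0.08 and -0.22). The part of these cells in the Ugt1a values was not tested.

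Some genes had a brightest probe that followed a member closely over the 7 arrays, by Pearson r among all named genes. For Ugt1a1 they were Ly6d, a surface protein of stratified epithelium (r = 0.987), Ugt1a5 (0.986) and Acaa1b, a peroxisomal thiolase (0.981). For Ugt1a6a they were Ugt1a5 (r = 0.981), Sptssb, a subunit of serine palmitoyltransferase (0.977), and Slc25a12, the mitochondrial aspartate-glutamate carrier (0.974). For Ugt1a6b they were Ugt1a5 (r = 0.991), Copb1, a coatomer subunit (0.988), and Ugt1a10 (0.973). For Ugt1a7c they were Zfpm1, a GATA cofactor (r = 0.983), Ly6d (0.975) and Smim3 (0.974). Ly6d had a log2 fold change of -0.94 and Sptssb one of -0.96, neither past the test. These r values were picked as the highest among all named genes over 7 arrays. Such a maximum is large for almost any profile, and a link between the genes was not tested.

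The Ugt2 family, which conjugates steroids and bile acids, was near or below detection. Ugt2b34 (chr5:86889770-86906937) was found in 2 of 3 PBS mice and 1 of 5 PhIP mice. Its probe read 4.41, 4.96 and 5.22 in PBS mice and 5.56, 4.41, 5.08, 4.41 and 4.41 in PhIP mice 1 to 5, with net intensities of 7 to 42, and the 5.56 belongs to a spot not found. The groups overlapped, and PhIP minus PBS was -0.09 (SE 0.33, adjusted p = 0.920 by limma), or -0.29 (SE 0.25) without the dim array. Its sign depended on the processing, as given with the alternatives. The genes most like it, Ltbp2, a matrix protein (r = 0.978), Dll4, a Notch ligand (0.973), and Slc6a8, the creatine transporter (0.971), are given by the same rule, although 4 of its 7 values were at the floor.

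Ugt2b35 (chr5:87000860-87013274) was found only in PBS mouse 3, at a net intensity of 44 against -3 to 17 elsewhere. Ugt2a3 (chr5:87324972-87337195), an intestinal and hepatic enzyme, was found on no array, with net intensities of -1 to 11. Of the other Ugt2 genes with a probe, Ugt2a1, Ugt2b1, Ugt2b5, Ugt2b37 and Ugt2b38 were also found on 0 arrays. Arrays give no lower limit for such genes beyond the background.

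Ugdh (chr5:65413207-65435842, minus strand), which oxidizes UDP-glucose to UDP-glucuronate, had 1 probe, found on no array, with net intensities of -10 to 15. Genes upstream and downstream of it were detected. Of 16 genes of UDP-glucuronate supply, transport and use, 13 were tested and 0 passed, with 12 below 0 and a median of -0.18, or 7 below 0 and -0.04 without the dim array. The smallest p values were those of Hk2, a hexokinase, at -0.60 (SE 0.30), Slc35b1, a nucleotide carrier of the endoplasmic reticulum, at -0.20 (SE 0.15), Gusb, the lysosomal glucuronidase that removes glucuronic acid, at -1.18 (SE 0.97), and Pgm2, a phosphopentomutase, at -0.40 (SE 0.37). Without the dim array Hk2 was at -0.42, Slc35b1 at -0.17 and Pgm2 at -0.20. Gusb read 5.26 on the dim array and was 9.40 to 9.98 on the others, where PhIP minus PBS was -0.34 (SE 0.12, adjusted p = 0.502 by limma).

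Of 14 other UDP-glycosyltransferase genes of the mouse 12 had a probe and 5 were tested. Of these 4 were below 0 and 0 passed, with a median of -0.57, or -0.48 without the dim array. They were Ugt1a5 at -0.83 (SE 0.41), Ugt1a9 at -0.57 (SE 0.29), Ugt1a10 at -0.48 (SE 0.35) and Ugt1a2 at -1.40 (SE 1.08), whose dim-array spot lay at the floor. Without that array they were at -0.58, -0.45, -0.57 and -0.48. These values are of each gene's brightest probe, and dimmer probes differed. The other Ugt1a2 probes were found on no array, and those of Ugt1a9 on too few to be tested. The Ugt1a5 probes mMC020172 and mMR028968 were at 0.46 and 0.46, or -0.09 and 0.22 without the dim array. The Ugt1a10 probe mMC022718 was at 0.45, or 0.004 without the dim array. Ugt3a2, which uses other sugars than glucuronate, was at 0.79 (SE 0.43), or 0.49 (SE 0.27) without the dim array. Of 10 transporters that carry glucuronides, 6 were tested and 0 passed, with a median of 0.03, or -0.005 without the dim array. Abcc1, an efflux pump, had 0.33 (SE 0.30), Slco2b1, an uptake carrier, 0.45 (SE 0.52), Slco2a1, a prostaglandin carrier, -0.42 (SE 0.64) and Abcc5 0.02 (SE 0.28). Without the dim array the values were 0.52 for Abcc1, 0.25 for Slco2b1, -0.03 for Slco2a1 and -0.03 for Abcc5.

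Regulators and fellow targets of Ugt1a6 were read from lists as well. Of 26 transcription factors of Ugt genes, 19 were tested and 0 passed, 11 above and 8 below 0, or 12 and 7 without the dim array. Those with the smallest p were Esr1, the estrogen receptor, at -0.44 (SE 0.22), Keap1, the Nrf2 inhibitor, at 0.22 (SE 0.12), Nr1h3, an oxysterol receptor, at 0.77 (SE 0.47), and Nfe2l2, which encodes Nrf2, at -0.88 (SE 0.68). Without the dim array, where the Nfe2l2 spot lay at the floor, they were at -0.51, 0.16, 0.42 and -0.35. Nr1i2, the pregnane X receptor, was found on no array. Of 8 AhR targets 6 were tested and 0 passed, 2 above and 4 below 0, and likewise 2 and 4 without the dim array. Their median was -0.61, or -0.29 without the dim array. Nqo1, a quinone reductase, had -0.89 (SE 0.56), or -0.50 (SE 0.30) without it, and was highest in PBS mouse 2 at 7.64. Xdh, xanthine dehydrogenase, had -0.89 (SE 0.83) with a dim-array spot at the floor, and -0.22 (SE 0.29) without it. Aldh3a1, an aldehyde dehydrogenase, had -0.34 (SE 0.30) and -0.43 (SE 0.27).

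Of 15 Nrf2 targets 13 were tested, and 0 passed with 8 arrays. Without the dim array 1 passed, Ephx1, the microsomal epoxide hydrolase. It read 10.99, 11.09 and 11.32 in PBS mice and 12.01, 12.72, 12.68, 12.58 and 12.79 in PhIP mice 1 to 5, so that all PhIP mice lay above all PBS mice. PhIP minus PBS was 1.42 (SE 0.20, adjusted p = 0.418 by limma) with 8 arrays and 1.54 (SE 0.10, limma adjusted p = 0.0047) with 7. The 13 genes, Ephx1 included, had 7 above 0 and a median of 0.05, or 0.03 without the dim array. Hmox1, heme oxygenase, had 0.39 (SE 0.29) with 8 arrays and 0.24 (SE 0.17) with 7, and Gsta4, a glutathione transferase, -0.42 (SE 0.32) and -0.27 (SE 0.29).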

How the data were processed

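Transcripts were measured on 8 arrays, 1 for each of 3 PBS and 5 PhIP mice, grouped by their titles. Per the file headers, the deposited intensity is the median of a spot at 635 nm minus its local background, unnormalized, from GenePix Pro, whose flag, a score per spot in the deposited scans, marks it as found, not found or bad. The authors' matrix holds log2 values. In 7 of its columns these equal the log2 of a scan's net intensity plus 1 constant per array (tolerance 0.01). They are not centred by gene, their medians lie between 4.68 and 5.13, and no source used here says whether the constants normalize. They served as an alternative.

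Of 38880 spots, 35078 mouse probes were quantile normalized on the linear scale, raised to a floor (percentile 5 of found values, 21.25) and put on the log2 scale. Probes found on at least 3 arrays were tested, 23 flagged bad left out. Accessions were matched to RefSeq GRCm38.p6, giving 23017 probes 1 symbol and 12061 none. PhIP was compared with PBS probe by probe by limma 3.58.1 in R 4.3.3 (lmFit, eBayes with a trend), 2-sided, adjusted by Benjamini-Hochberg over all tested probes, threshold 0.05. The steps were tested on simulated data. The number of arrays limits the precision.

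The members and gene lists were chosen with earlier results of these data known. The text names every member, up to 4 genes per list with the smallest p, and the 3 genes most like each member over 7 arrays. Alternatives covered scaling, background, floor, filter, weights, blocks, the authors' values and leaving out arrays. Figures used matplotlib 3.10.9.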

Additional observations from a re-analysis of the deposited data

Results flagged for a closer look

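In 4 of the 12 tested member probes, 1 of the 5 PhIP arrays lay so far from the others that its gap exceeded 0.71 of the group's range, Dixon's critical value. Chance alone marks about 1 group in 20, but here 40.8% of all 20020 tested probes had such an array, which was PhIP mouse 1 in 91.2% of them. On the dim array of PhIP mouse 1, the Ugt1a6b probe mMA035570 stood at 7.69 against 5.92 to 6.40 on the other PhIP arrays, and the Ugt1a7c probe mMC022420 at 7.95 against 5.08 to 5.84. The Ugt1a6a probe mMC021437 stood there at 4.41 against 8.34 to 9.08. None of these 3 spots was found by the scanner software, and their net intensities were 20, 24 and 3. The Ugt1a7c probe mMR026574 stood at 5.06 in PhIP mouse 3 against 4.41 to 4.48 in the other PhIP mice, 3 of which were at the floor.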

How the results depend on the processing

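No member probe passed under any of the 25 alternatives. The brightest probe of each Ugt1a member stayed below 0 in all 25, at -1.23 to -0.10 for Ugt1a1, -2.64 to -0.21 for Ugt1a6a, -1.49 to -0.27 for Ugt1a6b and -1.27 to -0.09 for Ugt1a7c. Dimmer Ugt1a probes did not, and without PBS mouse 2 mMC020749 was at 0.12, mMA035570 at 0.26 and mMC022420 at 0.43. Median scaling moved the median of all probes to -0.36 and that of the members to -0.89. The members' median of -0.65 ranged from -0.88 to -0.24 with 1 array left out, and was -0.30 with a higher floor, -0.29 with no filter on dim probes, -0.21 with the slide range as a block, -0.95 within the re-dipped arrays, and -0.091 without PhIP mouse 1 and PBS mouse 2. Ugt2b34 changed sign. It ranged from -0.314 to 0.016 with 1 array left out (above 0 without PhIP mouse 2, 4 or 5), and was 0.031 with the higher floor, 0.156 with the replicate block and 0.018 with re-dipping as a block.

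Over all probes 1 passed. The count was 0 to 7 with 1 array left out (7 without PhIP mouse 1), 0 with median scaling, with the replicate block and within either re-dipping class, 2 with normexp, either other floor, no filter, the stricter filter, 1 probe per gene or the slide block, 10 with array weights, 14 and 18 with the authors' values (renormalized and as deposited), and 3 without PhIP mouse 1 and PBS mouse 2. Array weights gave the dim array 0.04 and the others 0.80 to 2.25. Deviations of the 3 same-numbered pairs of arrays correlated at -0.10, 0.19 and -0.13. These pairs are too few to tell whether mouse numbers pair the arrays, and the first includes the dim array. The replicate block left the members' median at -0.68. The causes were not tested.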
